A study of Mus musculus with 8 samples.

Results

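The Fc receptors described here are 7 genes, taken by symbol from the 38026 genes of the deposited table. They are the Fc gamma receptors Fcgr1, Fcgr2b, Fcgr3 and Fcgr4, their common signalling chain Fcer1g, the neonatal Fc receptor Fcgrt and the Fc receptor-like gene Fcrls. All 7 symbols were found once. The study compared RNA-seq profiles of tumor-associated microglia/macrophages (TAMs, 5 libraries) with those of normal microglia (3 libraries), both from C57BL/6 mice. The series title places the tumors in medulloblastoma, a tumor of the cerebellum, while the microglia came from cerebral cortex. TAM 1 to TAM 5 came from mice at postnatal day 68, 90, 61, 66 and 62, and all 3 microglia libraries from mice at day 60. Both tissues were digested with papain, cleared of myelin and captured on CD11b magnetic beads, and the RNA was extracted with Trizol. CD11b is carried by microglia, monocyte-derived macrophages, monocytes and neutrophils alike, so each library is a bulk sample of the captured cells. The alleles or transgenes that gave rise to the tumors are not in the labels. Brain region, tumor and age differ together between the groups and cannot be told apart.

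Fc gamma receptors bind the constant part of IgG antibodies and so let phagocytes recognise antibody-coated cells and particles. In the mouse, Fcgr1, Fcgr3 and Fcgr4 are activating receptors that pair with the Fcer1g chain, whose tyrosine motif (ITAM) recruits the kinase Syk, while Fcgr2b is the inhibitory receptor and carries an inhibitory motif (ITIM) that recruits the phosphatase Inpp5d. Fcgrt binds IgG inside acidic endosomes, together with B2m, and returns it to the cell surface, which spares the antibody from degradation. Fcrls is a mouse gene of the Fc receptor-like family that is widely used as a marker of microglia.

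Promoter sequence was examined for the 4 Fc gamma receptors because the results turn on their balance. Each line below gives the 250 bases before the annotated RefSeq start (GRCm38.p6), from 5′ to 3′ on the gene's strand. Fcgr1 is at chr3:96293970-96294219 on the minus strand, Fcgr3 at chr1:171059404-171059653 on the minus strand, Fcgr4 at chr1:171018676-171018925 on the plus strand and Fcgr2b at chr1:170976072-170976321 on the minus strand. The table gives 2 starts for Fcgr3, and the first listed was taken. The Fcgr3, Fcgr4 and Fcgr2b starts lie inside the spans that the deposited table gives for these genes. Capitals mark matches to any of 3 short motifs.
Fcgr1: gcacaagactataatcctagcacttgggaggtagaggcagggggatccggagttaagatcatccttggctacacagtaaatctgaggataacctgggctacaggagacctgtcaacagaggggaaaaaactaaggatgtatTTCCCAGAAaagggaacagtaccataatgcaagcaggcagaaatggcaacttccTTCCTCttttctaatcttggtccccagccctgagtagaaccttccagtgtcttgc
Fcgr3: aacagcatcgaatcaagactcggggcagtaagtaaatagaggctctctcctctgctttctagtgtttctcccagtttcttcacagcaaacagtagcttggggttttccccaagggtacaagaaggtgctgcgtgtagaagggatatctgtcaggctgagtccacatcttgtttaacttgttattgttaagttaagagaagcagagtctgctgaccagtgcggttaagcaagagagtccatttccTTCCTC
Fcgr4: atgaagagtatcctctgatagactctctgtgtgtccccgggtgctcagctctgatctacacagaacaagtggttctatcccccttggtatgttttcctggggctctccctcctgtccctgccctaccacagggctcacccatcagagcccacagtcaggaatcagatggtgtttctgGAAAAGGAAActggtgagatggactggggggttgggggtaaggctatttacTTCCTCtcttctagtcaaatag
Fcgr2b: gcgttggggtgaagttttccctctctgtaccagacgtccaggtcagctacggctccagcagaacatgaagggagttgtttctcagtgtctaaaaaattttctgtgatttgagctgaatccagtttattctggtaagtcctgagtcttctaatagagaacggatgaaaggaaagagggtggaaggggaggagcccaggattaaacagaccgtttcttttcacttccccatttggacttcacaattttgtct
The motifs were GAGGAA, the core bound by the myeloid factor Spi1 (PU.1), TTCNNNGAA, a palindrome known from cytokine-responsive promoters, and a pair of GAAA repeats with any 2 bases between them, bound by interferon regulatory factors. Both strands were searched from 250 bases before to 50 after the start, and no matches overlapped each other in the 7 genes. All 3 activating receptors had 1 GAGGAA match, on the strand opposite to the gene's, so it reads TTCCTC in the lines above. Along the gene's strand it began at position -55 in Fcgr1, -6 in Fcgr3 and -22 in Fcgr4. Positions are counted from the start, with the base before it as -1. Fcgr1 also had the palindrome at position -109 and Fcgr4 the interferon regulatory motif at -73. Fcrls had 1 GAGGAA match on the gene's own strand, at -144, and Fcgr2b, Fcer1g and Fcgrt had no match to these letters in this window. Among 32851 promoters of the same length, 28.3% held GAGGAA, 8.3% held TTCNNNGAA and 3.44% held the GAAA pair. A match describes letters and does not show that a factor is bound.

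Values are TPM, a level corrected for transcript length and for the library's total, so genes can be ranked by it within a library. The deposited columns summed to 990422 to 997832 TPM per library. Between 12683 and 14242 genes reached 1 TPM in TAM libraries and between 14375 and 16619 in microglia libraries. Tests used limma on log2(TPM + 1) with Benjamini-Hochberg adjustment over 15262 genes, and a gene is called at an adjusted p under 0.05. All 7 receptors passed the filter of 1 TPM in 3 libraries. Log2 fold changes are TAM over microglia on the log2(TPM + 1) scale, which understates the change of genes at low levels. The median log2 fold change of all tested genes was -0.65. The fold changes of the 7 receptors and most counts are therefore also given on TPM rescaled by the median ratio to an average library, where that median was -0.04. Fold changes of other genes are on TPM unless stated.

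The cell labels were checked against marker genes. Of 10 microglia markers, 9 fell and 0 rose in TAMs on TPM, where 56.4% of all tested genes fell, and 7 fell on rescaled TPM, where 25.1% of all tested genes fell. Their summed level was 2524 to 7645 TPM in TAMs, against 15448 to 18533 TPM in microglia. Of 11 markers of monocyte-derived macrophages, 6 rose and 0 fell on TPM, where 8.22% of all tested genes rose, and 8 rose on rescaled TPM, where 24.6% rose. They summed to 5474 to 11818 TPM in TAMs, against 816 to 1117 TPM in microglia. TAM 2, from the oldest mouse, had the lowest microglia marker sum of the TAMs (2524 TPM, against 5829 to 7645 TPM in the other 4). It also had the highest neutrophil marker sum, 544 TPM against 74.1 to 196 TPM in the other TAMs and 17.5 to 33.9 TPM in microglia. In that sum S100a8, S100a9 and Retnlg gave most of the level. Retnlg was at 132 TPM in TAM 2, against 6.67 to 16.2 TPM in the other TAMs, Mmp8 at 5.52 TPM, against 0.488 to 1.12 TPM, and Cxcr2 at 4.27 TPM, against 1.68 to 3.59 TPM. Ly6g, a surface marker of mouse neutrophils, was at 0.54 TPM in TAM 2 and at 0 to 0.794 TPM in the other TAMs. Ngp, Ltf, Camp, Mpo and Elane of the same list were highest in TAM 1. They were at 0.536 to 4.86 TPM there, against 0.196 to 4.28 TPM in TAM 2. Lyz2 made up most of the monocyte-derived sum. Without it the sum was 694 TPM in TAM 2, against 215 to 469 TPM in the other TAMs and 131 to 267 TPM in microglia. TAM 2 was the highest TAM library for Ccr2 (48.3 TPM, against 2.62 to 17 TPM in the others), Emilin2 (77.3 TPM, against 9.56 to 13.6 TPM), Vim (395 TPM, against 65.1 to 125 TPM), Itga4 (18.8 TPM, against 5.88 to 10.05 TPM) and Chil3 (41.5 TPM, against 1.81 to 19.2 TPM). Vim gave most of the TAM 2 sum without Lyz2, and was at 99.3 to 226 TPM in microglia. TAM 1 was the highest TAM library for Ly6c2 (77.9 TPM, against 5.88 TPM in TAM 2) and Ms4a4c (141 TPM, against 30.3 TPM). The same held for Plac8 (70.7 TPM, against 37.3 TPM) and Itgal (57.2 TPM, against 32.7 TPM). TAM 2 also had the highest border macrophage marker sum of the TAMs, 2185 TPM against 779 to 1387 TPM in the others and 1429 to 1903 TPM in microglia. Stab1 and Ms4a7 gave most of it. Cd163 (23.9 TPM, against 19.7 TPM in TAM 2) and Lyve1 (28.2 TPM, against 10.5 TPM) were highest in TAM 5, and the other genes of that list in TAM 2. Dendritic cell markers summed to 48.4 TPM in TAM 2, against 11.7 to 31.1 TPM in the other TAMs and 39.9 to 47.8 TPM in microglia. Cd209a and Ccr7 gave most of the TAM 2 sum. Ccr7 was highest in TAM 4 (20.7 TPM, against 14.7 TPM in TAM 2) and Clec9a in TAM 1 (2.31 TPM, against 1.70 TPM). Ccr9 was highest in TAM 5 (0.945 TPM, against 0.511 TPM), and the other genes of that list in TAM 2. Of 11 endothelial cell markers, 1 rose and 10 fell on both scales, where 56.4% of all tested genes fell on TPM and 25.1% on rescaled TPM. They summed to 18.8 to 88.7 TPM in TAMs, against 572 to 1832 TPM in microglia. In bulk samples, more cells of a type and more RNA of a gene per cell cannot be told apart. The part of all these markers in the receptor levels was not tested.

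**Figure D1:**
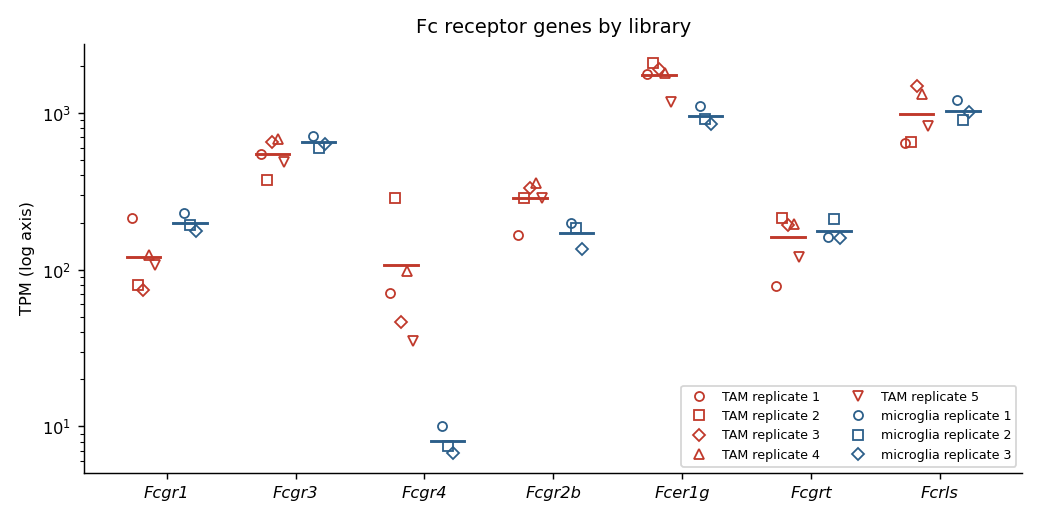
Level of each receptor gene in every library, in TPM on a log axis, with TAM libraries to the left of microglia libraries; each point is 1 library and the bar is the group mean. Fcgr4 and Fcer1g were higher in all 5 TAM libraries than in any microglia library, while the other 5 genes overlapped.

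On TPM, 3 of the 7 receptor genes rose in TAMs (Fcgr4, Fcer1g and Fcgr2b), against 8.22% of all tested genes, and 1 fell (Fcgr1), against 56.4% of all tested genes. On rescaled TPM the same 3 genes rose, against a background of 24.6%, and 0 fell, against 25.1%. The authors' deposited table, with its p-values adjusted here over 27039 genes, also calls these 3 higher and 0 lower, against 17.6% and 16% of its genes. The median log2 fold change of the 7 genes was -0.15 on TPM and 0.57 on rescaled TPM. Fcgr3, Fcgrt and Fcrls were called on neither scale, and the sign of each was negative on TPM and positive on rescaled TPM. All 5 TAM libraries lay above all microglia libraries for 2 of the 7 genes on TPM, against 7.97% of all tested genes, and for 3 of the 7 on rescaled TPM, against 24.1%. In 0 of the 7 did all TAM libraries lie below, against 49.7% and 24.6%.

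Fcgr4, the mouse activating receptor with a high affinity for IgG2a and IgG2b, showed the largest change of the 7. It was at 71.4, 287, 46.6, 98.6 and 35 TPM in TAM 1 to TAM 5, against 10.02, 7.52 and 6.72 TPM in microglia 1 to microglia 3. Every TAM library lay above every microglia library, and TAM 2 stood far above the other TAMs. The means were 108 ± 103 TPM in TAMs (SD, n = 5) and 8.08 ± 1.72 TPM in microglia (SD, n = 3), so the spread among TAMs was about as large as their mean. The log2 fold change was 3.18 (SE 0.60, 95% interval 1.82 to 4.54, limma adjusted p = 0.00225) and 3.83 on rescaled TPM (SE 0.67, limma adjusted p = 0.00237). Without TAM 2 it was 2.72 (limma adjusted p = 0.000639). With age as covariate it was 2.31 (limma adjusted p = 0.000833). That age term rests mostly on TAM 2, at day 90 against day 61 to 68 in the other TAMs. The fit therefore does not separate age from that library. In TAM 2 the high Fcgr4 level came with the lowest microglia marker sum of the TAMs and the highest sums of neutrophil, border macrophage, dendritic cell and, leaving out Lyz2, monocyte-derived markers. Vim gave most of that monocyte-derived sum, and Ly6c2, Ms4a4c, Plac8 and Itgal of the same list were highest in TAM 1. Of the neutrophil list, Ngp, Ltf, Camp, Mpo and Elane were also highest in TAM 1. Cd163 and Lyve1 of the border macrophage list were highest in TAM 5. Of the dendritic cell list, Ccr7, Clec9a and Ccr9 were highest in TAM 4, TAM 1 and TAM 5.

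Fcgr1, the high-affinity activating receptor that binds IgG as a monomer, was the only one of the 7 to fall on TPM. It was at 215, 80.4, 74.2, 124 and 107 TPM in TAM 1 to TAM 5, against 231, 193 and 175 TPM in microglia. TAM 1 lay within the microglia range and the other 4 TAMs lay below it. The means were 120 ± 56.8 TPM in TAMs (SD, n = 5) and 199.7 ± 28.4 TPM in microglia (SD, n = 3). The log2 fold change was -0.83 (SE 0.32, 95% interval -1.56 to -0.10, limma adjusted p = 0.0477). This fall was close to the shift of all tested genes, and on rescaled TPM it was -0.11 (SE 0.38, 95% interval -0.996 to 0.772, limma adjusted p = 0.825). The authors' deposited table gives a log2 fold change of 0.0961 for Fcgr1, so its fall depends on the scaling. The call was also lost when any library other than TAM 1 was left out (limma adjusted p of up to 0.132).

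Fcgr3, the low-affinity activating receptor, was the most abundant of the 4 Fc gamma receptors in both groups. It was at 549, 375, 654, 682 and 489 TPM in TAM 1 to TAM 5, against 715, 602 and 638 TPM in microglia. The groups overlapped. Its log2 fold change was -0.27 (SE 0.20, 95% interval -0.72 to 0.17, limma adjusted p = 0.243) and 0.45 on rescaled TPM (SE 0.27, 95% interval -0.17 to 1.07, limma adjusted p = 0.201). These intervals leave room for a change in either direction.

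Fcgr2b, the inhibitory receptor, was at 167, 285, 331, 356 and 285 TPM in TAM 1 to TAM 5, against 197, 183 and 135 TPM in microglia. In 4 of the 5 TAMs it was above all microglia libraries, and TAM 1 lay among the microglia. The means were 285 ± 72.5 TPM in TAMs (SD, n = 5) and 172 ± 32.6 TPM in microglia (SD, n = 3). The log2 fold change was 0.70 (SE 0.25, 95% interval 0.13 to 1.26, limma adjusted p = 0.0346) and 1.41 on rescaled TPM (SE 0.27, limma adjusted p = 0.00358), where the groups did not overlap. On TPM the call was lost when any library other than TAM 1 or microglia 1 was left out (limma adjusted p of up to 0.139), and on rescaled TPM it held without each library in turn.

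Fcer1g, the ITAM chain that the activating receptors need at the cell surface, was the most abundant of the 7 in TAMs. It was at 1769, 2071, 1910, 1797 and 1181 TPM in TAM 1 to TAM 5, against 1104, 919 and 846 TPM in microglia. The groups did not overlap, although TAM 5 lay close to the highest microglia library. The means were 1746 ± 337 TPM in TAMs (SD, n = 5) and 957 ± 133 TPM in microglia (SD, n = 3). Its log2 fold change was 0.85 (SE 0.19, limma adjusted p = 0.00551) and 1.57 on rescaled TPM (SE 0.31, limma adjusted p = 0.00413).

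Fcgrt, the neonatal receptor, was at 79.3, 213, 194, 197 and 121 TPM in TAM 1 to TAM 5, against 162, 209 and 159 TPM in microglia. TAM 1 and TAM 5 lay below the microglia and TAM 2 just above them. The endothelial marker sum was higher in the microglia libraries, as given above, and its part in the Fcgrt levels was not tested. The log2 fold change of Fcgrt was -0.22 (SE 0.32, 95% interval -0.95 to 0.52, limma adjusted p = 0.566) and 0.50 on rescaled TPM (SE 0.34, 95% interval -0.29 to 1.29, limma adjusted p = 0.259).

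Fcrls was at 644, 655, 1485, 1331 and 820 TPM in TAM 1 to TAM 5, against 1204, 898 and 1008 TPM in microglia. TAM 1, TAM 2 and TAM 5 lay below the microglia, and TAM 3 and TAM 4 above them. For Fcrls the log2 fold change was -0.15 (SE 0.31, 95% interval -0.85 to 0.55, limma adjusted p = 0.679) and 0.57 on rescaled TPM (SE 0.36, 95% interval -0.27 to 1.41, limma adjusted p = 0.225). Fcrls is used as a microglia marker, and its difference from the marker list above was not tested.

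**Figure D2:**
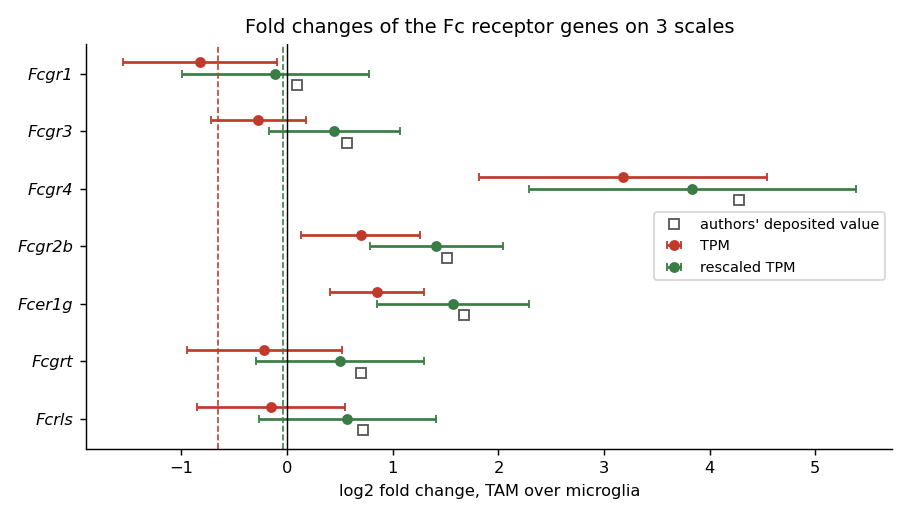
Log2 fold change, TAM over microglia, of each receptor gene on TPM and on rescaled TPM, with 95% intervals from limma, beside the log2 fold change in the authors' deposited table. Fcgr4, Fcer1g and Fcgr2b lay above 0 on all scales, while Fcgr1 was at -0.83 on TPM and -0.11 on rescaled TPM.

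By mean TPM, the order in TAMs was Fcer1g, Fcrls, Fcgr3, Fcgr2b, Fcgrt, Fcgr1 and Fcgr4. Of the neighbours in this order, the ranges over libraries were separate only for Fcgr3 and Fcgr2b. In microglia the order was Fcrls, Fcer1g, Fcgr3, Fcgr1, Fcgrt, Fcgr2b and Fcgr4. There the ranges were separate for Fcer1g and Fcgr3, for Fcgr3 and Fcgr1 and for Fcgr2b and Fcgr4, and the other neighbours overlapped. The authors' deposited log2 fold changes for the genes other than Fcgr1 were 4.28 for Fcgr4, 1.67 for Fcer1g, 1.51 for Fcgr2b, 0.719 for Fcrls, 0.703 for Fcgrt and 0.567 for Fcgr3.

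The 4 Fc gamma receptors summed to 1063 ± 129 TPM in TAMs (SD, n = 5) and 1031 ± 106 TPM in microglia (SD, n = 3). This sum depends on the scaling: on rescaled TPM it was 1290.2 ± 261 in TAMs and 763 ± 192 in microglia, 1.69 times higher in TAMs, with 4 of 5 TAM libraries above all microglia. The makeup of the sum is a ratio within a library and does not depend on rescaling. Fcgr4 took 7.12, 28.0, 4.22, 7.82 and 3.82% of the sum in TAM 1 to TAM 5, against 0.869, 0.763 and 0.703% in microglia. Fcgr2b took 16.7, 27.7, 29.9, 28.2 and 31.1% in TAM 1 to TAM 5, against 17.1, 18.6 and 14.2% in microglia. The Fcgr4 shares of TAMs and microglia did not overlap, and for Fcgr2b 4 of 5 TAMs lay above the microglia, with TAM 1 as the exception. Fcgr3 took 54.8, 36.5, 59.2, 54.1 and 53.4% in TAM 1 to TAM 5, against 62.0, 61.1 and 66.8% in microglia, with no overlap. Fcgr1 took 21.5, 7.82, 6.71, 9.84 and 11.7% in TAM 1 to TAM 5, against 20.03, 19.6 and 18.4% in microglia. In TAM 1 the Fcgr1 and Fcgr2b shares were near those of microglia, although its Fcgr4 share was not. The 3 activating receptors together took a mean of 73.3% in TAMs and 83.4% in microglia.

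**Figure D3:**
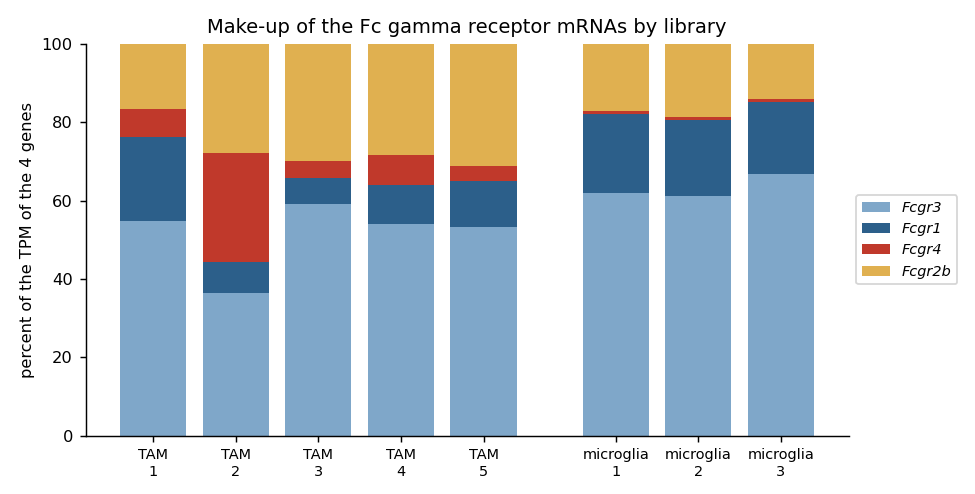
Share of each of the 4 Fc gamma receptors in their summed TPM, in percent, as a stacked bar per library, TAM libraries left of microglia libraries. Fcgr4 took 3.82 to 28.0% in TAMs and 0.703 to 0.869% in microglia, and TAM 1 had the microglia-like Fcgr1 share of 21.5%.

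Ratios between paired genes within a library were compared with a two-sided exact permutation test over the 56 arrangements of 5 and 3 libraries, whose smallest possible p is 0.0357, adjusted over 5 ratios by Benjamini-Hochberg. Fcgr4 over the inhibitory Fcgr2b was 0.428, 1.01, 0.141, 0.277 and 0.123 in TAM 1 to TAM 5, against 0.0507, 0.0410 and 0.0497 in microglia. All TAM ratios lay above all microglia ratios. The mean log2 difference was 2.63 (exact p = 0.0357, adjusted p = 0.0893). Fcgr1 over Fcgr2b was 1.29, 0.282, 0.224, 0.349 and 0.376 in TAM 1 to TAM 5, against 1.17, 1.05 and 1.30 in microglia. In 4 of 5 TAMs it lay below all microglia, with a mean log2 difference of -1.53 (exact p = 0.107, adjusted p = 0.134). Fcgr3 over Fcgr2b was 3.29, 1.32, 1.98, 1.92 and 1.71 in TAM 1 to TAM 5, against 3.62, 3.29 and 4.72 in microglia. Again 4 of 5 TAMs lay below all microglia, and the mean log2 difference was -0.97 (exact p = 0.0714, adjusted p = 0.119). The ratios of Fcgr1 and Fcgr3 to Fcgr2b were thus lower in most TAMs and that of Fcgr4 was higher in all 5. No ratio passed the adjusted threshold. With a smallest p of 0.0357, full separation in only a few of the 5 ratios could not reach it. The differences between the ratios were not tested.

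Fcer1g was also set against Tyrobp, the other ITAM chain of myeloid cells, which serves Trem2 among other receptors. Tyrobp itself rose, with a log2 fold change of 0.94 (limma adjusted p = 0.00489) and 1.66 on rescaled TPM. Fcer1g over Tyrobp was 0.411, 0.788, 0.448, 0.382 and 0.320 in TAM 1 to TAM 5, against 0.479, 0.495 and 0.454 in microglia, a mean log2 difference of -0.09 (exact p = 0.714, adjusted p = 0.714). TAM 2 lay above the microglia and the other 4 TAMs below them. Fcgrt over its partner B2m was 0.0089, 0.0519, 0.0317, 0.0236 and 0.0213 in TAM 1 to TAM 5, against 0.0669, 0.0986 and 0.0778 in microglia. Every TAM ratio lay below every microglia ratio, with a mean log2 difference of -1.76 (exact p = 0.0357, adjusted p = 0.0893). The part of the endothelial markers in this ratio was not tested. B2m, which also pairs with MHC class I, was itself higher in TAMs: its log2 fold change was 1.54 on TPM (limma adjusted p = 0.00151), with 4105 to 8937 TPM in TAMs against 2046 to 2423 TPM in microglia.

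**Figure D4:**
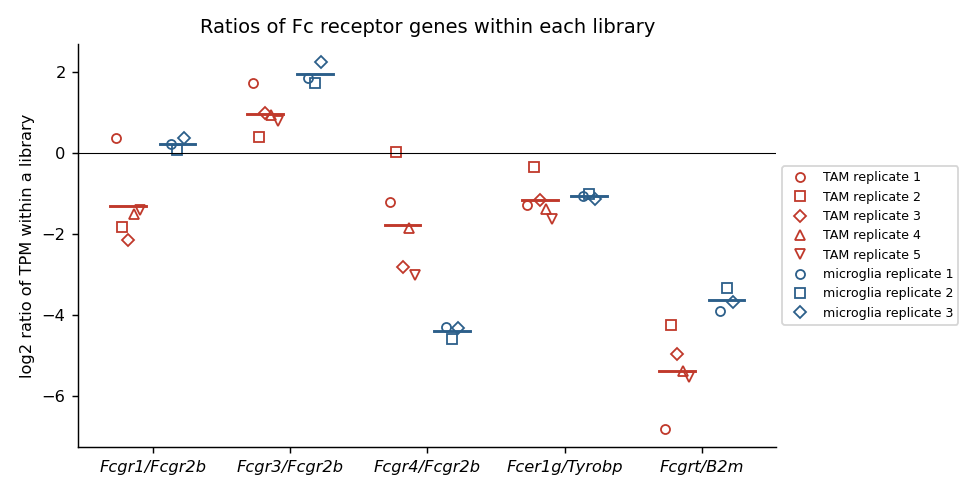
Ratio of 2 genes' TPM within each library, on a log axis, for the 5 pairs compared, with TAM libraries left of microglia libraries and the group mean as a bar. Fcgr4 over Fcgr2b was higher and Fcgrt over B2m lower in all 5 TAM libraries than in any microglia library.

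The genes around the receptors were grouped into 8 lists by role, of which 120 genes were tested. Over all lists 30 rose and 53 fell on TPM, and 49 rose and 13 fell on rescaled TPM, against the backgrounds given above (8.22% and 56.4% on TPM, 24.6% and 25.1% on rescaled TPM). Marker sums of several cell types, endothelial cells among them, differed between the groups, and their part in the list genes was not tested.

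Among the immunoglobulin chains, 5 of 8 tested rose and 1 fell on TPM, with a list median of 2.21 against -0.65 for all genes. On rescaled TPM 5 rose and 0 fell, with a median of 2.49. The list holds chains of IgG, which these receptors bind, and also chains of IgA and IgM, which they do not. Leaving out 1 library at a time gave 3 to 6 higher and 0 to 1 lower on TPM. Igkc, the kappa light chain, was at 261, 28.0, 591, 42.2 and 53.5 TPM in TAM 1 to TAM 5, against 2.50, 9.90 and 0.948 TPM in microglia (log2 fold change 4.59, limma adjusted p = 0.00527). Of the IgG heavy chains only Ighg2b was called, with a log2 fold change of 3.27 (limma adjusted p = 0.0115). It was at 18, 59.5, 18.8, 2.32 and 3.28 TPM in TAM 1 to TAM 5, against 0.318, 0.134 and 0.51 TPM in microglia, highest in TAM 2. Ighg1 (limma adjusted p = 0.495) and Ighg2c (limma adjusted p = 0.0606) were not called, and Ighg3 was not tested. Igha, the IgA heavy chain, rose by a log2 fold change of 4.38. Jchain, which joins IgA and IgM into polymers, and the lambda chain Iglc2 rose by 2.24 and 1.12. The Jchain call was lost in 5 of 8 fits that left out 1 library (without TAM 1, TAM 5 or any microglia library, limma adjusted p of up to 0.106), and the Iglc2 call without microglia 2 or microglia 3 (up to 0.0699). Igha varied from 10.6 to 223 TPM between TAM libraries, and both Igkc and Igha were highest in TAM 3 and lowest in TAM 2. Ighm, the IgM heavy chain, fell by 0.82 on the log2 scale on TPM (limma adjusted p = 0.0232). It was not called on rescaled TPM or without any 1 of the microglia libraries (up to 0.067). The B and plasma cell marker list summed to 201 to 819 TPM in TAMs and 378 to 406 TPM in microglia, and its part in the immunoglobulin levels was not tested.

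Of the other Fc and Fc-like receptors, 4 of 13 were tested, and on TPM 1 rose (B2m) and 1 fell (Trim21, the cytosolic antibody receptor, log2 fold change -0.75). Trim21 was not called on rescaled TPM, where its log2 fold change was -0.09, or without microglia 2 or microglia 3 (limma adjusted p of up to 0.0738). The IgE receptor gene Fcer1a, which marks mast cells and basophils, was at 0 TPM in every library. Fcrl5, a B-lineage Fc receptor-like gene, was not tested but was at 92.1 TPM in TAM 2, against 0.0956 to 1.87 TPM in the other TAMs and at most 0.0865 TPM in microglia. It was chosen for mention after its values were seen.

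Of the receptors other than Fc gamma receptors that use the Fcer1g chain, 2 of 7 tested rose and 0 fell on TPM, with a median of 0.41, and 3 rose on rescaled TPM, with a median of 0.98. The 2 were Clec4e (Mincle), which senses mycobacterial glycolipids and dead cells, and Clec4d, its partner. Clec4e was at 8.42, 35.8, 11.5, 15.1 and 12.9 TPM in TAM 1 to TAM 5, against 0.654, 0.459 and 0.531 TPM in microglia, a log2 fold change of 3.35 (limma adjusted p = 0.000293). Clec4d had a log2 fold change of 2.34 (limma adjusted p = 0.0051), and both were highest in TAM 2, the library with the highest Fcgr4.

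Downstream of the ITAM, 4 of 27 kinase and adaptor genes rose and 14 fell on TPM, with a median of -0.32, while 12 rose and 4 fell on rescaled TPM, with a median of 0.37. Fgr, a Src-family kinase of myeloid cells, rose by a log2 fold change of 2.06, the adaptors Sh3bp2 and Lat by 0.66 and 0.57, and the chain Tyrobp as given above. On TPM the Lat call was lost in 6 of 8 fits that left out 1 library (all but those without TAM 2 or TAM 5, limma adjusted p of up to 0.12). On rescaled TPM, with all libraries, Lat had a log2 fold change of 1.00 (limma adjusted p = 0.00096). Pik3r1, the regulatory subunit of PI3 kinase, had a log2 fold change of -2.01, the phospholipase Plcg1 of -1.64 and the adaptor Card9 of -1.40, and all 3 also fell on rescaled TPM. Syk, the kinase that binds the Fcer1g ITAM, had a log2 fold change of 0.00 on TPM (limma adjusted p = 0.987) and 0.71 on rescaled TPM (limma adjusted p = 0.02).

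Of the 12 inhibitory signal genes, 0 rose on either scale, 8 fell on TPM, with a median of -0.63, and 2 fell on rescaled TPM, with a median of 0.06. Those 2 were Pag1, the adaptor that recruits the kinase Csk, with a log2 fold change of -2.58 on TPM, and Ubash3b, a phosphatase that acts on Syk, with -1.15. Inpp5d, the phosphatase that Fcgr2b recruits, was at 196, 135, 198, 201 and 237 TPM in TAM 1 to TAM 5, against 372, 415 and 480 TPM in microglia. Its log2 fold change was -1.14 on TPM (limma adjusted p = 0.000963) and -0.42 on rescaled TPM (limma adjusted p = 0.0651). The levels of Fcgr2b and Inpp5d thus moved in opposite directions on TPM, and on rescaled TPM only that of Fcgr2b was called.

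Of the genes listed as other ITIM receptors, 6 of 17 rose and 6 fell on TPM, with a median of -0.30. On rescaled TPM 7 rose and 1 fell, with a median of 0.39. Whether each listed mouse receptor, Cd33 included, carries an ITIM was not checked. Cd22, the sialic acid receptor better known from B cells, was at 33.9 to 52.8 TPM in TAMs, against 1.40 to 1.47 TPM in microglia, a log2 fold change of 4.17 (limma adjusted p = 2.64e-06). Cd72, another receptor known from B cells, had a log2 fold change of 4.14 and Clec12a, a myeloid inhibitory lectin, of 2.46. Pecam1, an adhesion receptor of endothelium and leukocytes, had a log2 fold change of -2.77, Cd33 of -1.29 and Siglece, both sialic acid receptors, of -0.94. On rescaled TPM Pecam1 still fell, and Cd33 and Siglece were not called. Pecam1 is also on the endothelial marker list. Of the other 10 genes on that list 9 fell on both scales, against 56.4% of all tested genes on TPM and 25.1% on rescaled TPM. Those 10 genes summed to 13.8 to 81.5 TPM in TAMs and 535 to 1734 TPM in microglia, and their part in the Pecam1 fall was not tested.

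Of the actin and phagocytic cup genes, which drive engulfment, 9 of 25 tested rose and 12 fell on TPM, with a median of -0.24, and 12 rose and 2 fell on rescaled TPM, with a median of 0.47. Arpc5 and Actr3, subunits of the actin-branching Arp2/3 complex, rose by log2 fold changes of 0.89 and 0.77, and the GTPase Rac2 by 0.86. Elmo1, which activates Rac with a Dock protein, had a log2 fold change of -2.01, the pseudopod motor Myo10 of -1.53 and the membrane-actin linker Marcks of -1.25. Elmo1 and Marcks also fell on rescaled TPM, and Myo10 was not called there or without microglia 2 or microglia 3 (limma adjusted p of up to 0.0532).

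Of the cytokine receptors and factors known to set Fc receptor levels, 3 of 20 rose and 11 fell on TPM, with a median of -0.60, and 8 rose and 4 fell on rescaled TPM, with a median of 0.11. Csf2ra and Csf2rb, the GM-CSF receptor chains, rose by log2 fold changes of 1.49 and 0.55 and Il4ra, the interleukin-4 receptor, by 0.85. Tgfbr1, Ifngr1 and Il10ra, receptors for TGF-beta, interferon gamma and interleukin-10, had log2 fold changes of -1.85, -1.63 and -1.49, and all 3 also fell on rescaled TPM. Spi1, whose core motif was searched above, had a log2 fold change of -0.13 on TPM (limma adjusted p = 0.305) and 0.59 on rescaled TPM (limma adjusted p = 0.0391).

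**Figure D5:**
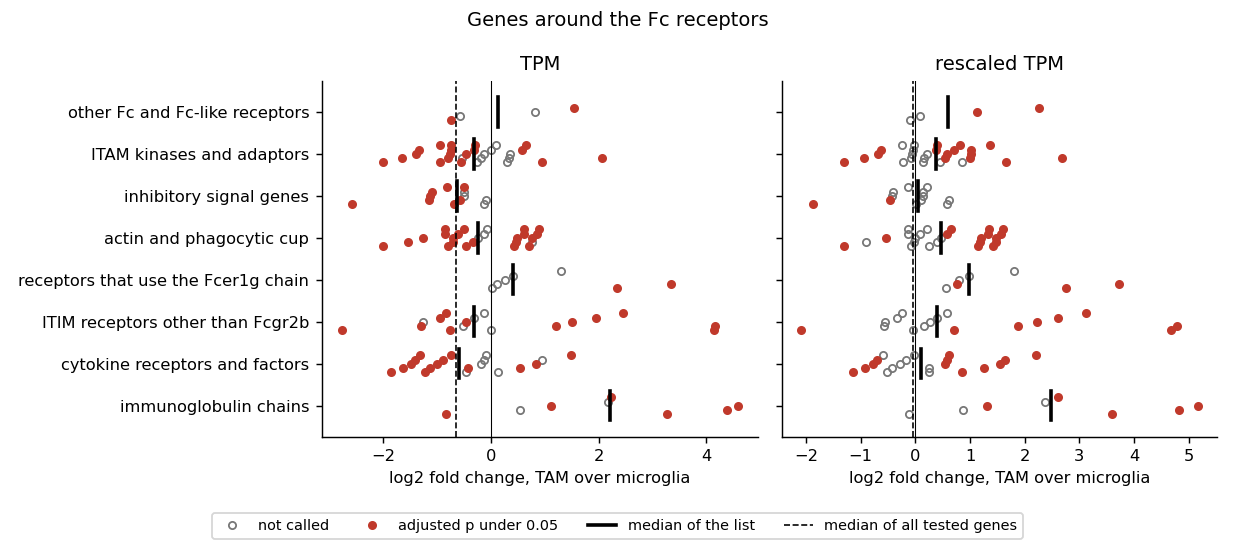
Log2 fold change, TAM over microglia, of every tested gene of the 8 lists, on TPM (left) and rescaled TPM (right); filled points have an adjusted p under 0.05, the thick bar is the list's median and the dashed line the median of all tested genes. The immunoglobulin list had the highest median on both scales, 2.21 and 2.49.

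The genes whose log2(TPM + 1) followed each receptor most closely were sought among 8253 genes with a mean of at least 10 TPM, by Pearson's r over the 8 libraries. These libraries form 2 groups, so a high r may come from the group difference alone, and it is given as a description. For Fcgr4 the closest were Rac2 (r = 0.996) and Plbd1 (r = 0.989), and both stayed above 0.98 on rescaled TPM. For Fcgr1 they were Bloc1s5 (0.971) and Ak1 (0.961), for Fcgr3 Csf1 (0.967) and Parvg (0.957), and for Fcgr2b Eif2s2 (0.966) and Ugt1a7c (0.957). For Fcer1g they were Hebp1 (0.974) and Slc16a3 (0.970) and for Fcgrt Tmem70 (0.956) and Slc35a4 (0.937). Fcrls had the least close partners, Gdpd3 (0.889) and Cnpy2 (0.881).

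In the mm10 annotation, 4 of the 7 genes lie on chromosome 1. Fcgr2b (170958617 to 170976547), Fcgr4 (171018920 to 171029761) and Fcgr3 (171051174 to 171064935) are next to each other, and Fcer1g (171229572 to 171234365) lies farther along. Fcgr1 is on chromosome 3 (96282909 to 96293969), as is Fcrls (87250758 to 87263738), and Fcgrt is on chromosome 7 (45092993 to 45103822). Of these 3 clustered genes Fcgr4 and Fcgr2b rose and Fcgr3 was not called, and the differences between them were not tested. Within 50 kb of any of the 7 genes lay 45 other genes of the table, of which 28 were tested, 2 rose and 15 fell on TPM, with a median of -0.66, and 6 rose and 11 fell on rescaled TPM, with a median of -0.12. Over all tested genes the shares were 8.22% higher and 56.4% lower on TPM, and 24.6% higher and 25.1% lower on rescaled TPM; the medians of all tested genes were -0.65 and -0.04. Fcrlb, an Fc receptor-like gene beside Fcgr2b, was at 0.911 to 4.53 TPM in TAMs, against 0.474 to 0.592 TPM in microglia, and was called on rescaled TPM (log2 fold change 1.13, limma adjusted p = 0.0293) but not on TPM (0.82, limma adjusted p = 0.0592). Fcrla, its neighbour, was at 0.199 to 0.333 TPM in TAMs and at 0.0931 to 0.248 TPM in microglia and was not tested.

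Fcgr2b and Fcgr3 have similar extracellular coding sequence, which can affect how reads are divided between them. In GENCODE M21 transcripts, 166 of the 1733 windows of 50 bases in Fcgr3 (9.58%) also occur in Fcgr2b, and 6.95% of the Fcgr2b windows occur in another gene. The other 5 genes had 0 such windows. How the authors assigned reads that fit both genes is not given in the sources used here, so the split between Fcgr2b and Fcgr3 carries this uncertainty. Whether counting used strand is likewise not given.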

How the data were processed

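The data were 1 deposited table of 38026 genes for 8 RNA-seq libraries of CD11b-captured mouse cells, grouped by sample title. It gives TPM per library as the authors computed it, per the file headers. Beside it stand the authors' own DESeq2 results, per the file headers: a mean normalized signal for each gene, a log2 fold change (by its signs, TAM over microglia) and a p-value, deposited without adjustment. Per the submitters' processing notes the authors used mm10, FastQC and DESeq2, and no versions are given. How reads were aligned and quantified is not given in the sources used here. Counts were not analysed here, so depth is unknown. The table's 3 unnamed columns were left out.

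The filter kept 15262 genes that reached 1 TPM in 3 or more libraries. They were tested on log2(TPM + 1), pseudocount 1, with limma 3.58.1 (intensity trend, no covariate, R 4.3.3) and Benjamini-Hochberg adjustment at 0.05. The procedure was first tested on simulated data. The simulation changed a small set of genes in both directions and held no shift of all genes, so it does not bear on the scaling. Ratios within a library were tested by exact permutation with scipy 1.17.1. For rescaled TPM, a library's values were divided by the median of its gene-wise ratios to a geometric mean over libraries. Alternatives were a pseudocount of 0.1, no filter, no trend, age as covariate, a replicate block and each library left out. Rescaled fits with a library left out, and the alternatives for the correlations, were added after the data were seen.

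The TAM libraries differ in mouse age, but the labels do not say whether the microglia libraries came from separate animals, so p-values measure the spread between libraries, which may be partly technical. The members and lists were chosen with earlier results of these data known. The motifs were chosen with the promoters in view. The text names up to 3 called genes of largest change per list and direction, the 2 most alike genes per receptor and genes within 50 kb, of which most are given as counts. Other genes it names were chosen after their values were seen. Promoters come from RefSeq on GRCm38.p6 and matched 7 of 7 genes. Shared windows come from GENCODE M21. A gene of the lists is counted but not reported here by name.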

Additional observations from a re-analysis of the deposited data

Results flagged for a closer look

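Among the 5 TAM libraries, 4 of 16 sets of values had 1 library far from the others. There the gap to the nearest library over the whole range exceeded Dixon's critical value of 0.71. That value flags about 1 in 20 sets of independent, normally distributed values. The flagged sets are TPM and shares of the same sum, without a log, so 4 of 16 cannot be set against that rate. TAM 2 had 287 TPM of Fcgr4, against 98.6 TPM in the next TAM library. As shares of the 4 Fc gamma receptors, TAM 2 had 28.0% for Fcgr4, against 7.82% in the next, and 36.5% for Fcgr3, against 53.4% in the nearest. These 3 values come from the same library and share its Fcgr4 level. TAM 1 had an Fcgr2b share of 16.7%, against 27.7% in the nearest TAM library, and 14.2 to 18.6% in microglia. The cause was not tested for any of the 4.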

How the results depend on the processing

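The calls of Fcgr4 and Fcer1g held under every alternative run, and Fcgr4 moved to 2.31 with age as covariate. The age term rests mostly on TAM 2, from day 90, so it does not separate age from that library. On rescaled TPM, 3755 genes were higher and 3837 lower, against 1254 and 8610 on TPM. Rescaling turned Fcgr3 to 0.45, Fcgrt to 0.50 and Fcrls to 0.57, ended the Fcgr1 call (-0.11), left 0 receptors lower and gave 49 list genes higher and 13 lower. With age as covariate Fcrls was at 0.11, and the calls of Fcgr1 (-0.72, adjusted p = 0.131) and Fcgr2b (0.73, adjusted p = 0.0655) were lost. Without a filter both were also lost (-0.83, adjusted p = 0.0733, and 0.70, adjusted p = 0.0543), and without the trend Fcgr1 was lost (-0.83, adjusted p = 0.0567). Under each of these 3 settings 0 receptors were lower. The causes were not tested.

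Replicate numbers shared by the groups showed same-number correlations of 0.15, 0.0139 and -0.0507, against -0.246 to 0.181 for pairs with different numbers. With so few libraries these values cannot show whether libraries of the same number were handled together. With a replicate block Fcgr1 was -0.86 (limma adjusted p = 0.0538) and Fcgr2b 0.56 (limma adjusted p = 0.188), 0 receptors were lower, and 1103 genes were higher and 8613 lower.

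Leaving out 1 library at a time gave -1.06 to -0.68 for Fcgr1, 0.53 to 0.88 for Fcgr2b, -0.36 to -0.14 for Fcgr3, 2.72 to 3.47 for Fcgr4, 0.77 to 0.99 for Fcer1g, -0.34 to 0.013 for Fcgrt and -0.32 to -0.02 for Fcrls. It gave 2 to 3 receptors higher and 0 to 1 lower, 894 to 1303 genes higher and 5581 to 9243 lower, and 25 to 32 list genes higher and 42 to 56 lower. On rescaled TPM the same gave -0.38 to 0.058 for Fcgr1, 1.17 to 1.58 for Fcgr2b, 3.38 to 4.2 for Fcgr4 and 1.40 to 1.78 for Fcer1g. The log2 ratio differences were -1.95 to -1.32 for Fcgr1 over Fcgr2b, -1.16 to -0.82 for Fcgr3 over Fcgr2b, 2.18 to 2.94 for Fcgr4 over Fcgr2b, -0.30 to 0.028 for Fcer1g over Tyrobp and -2.04 to -1.41 for Fcgrt over B2m. Depth is unknown, so no limit from it can be given.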
